A study of Sus scrofa with 24 samples.

Results

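The genes of the cell division cycle were followed in the longissimus dorsi (LD) muscle, the loin, of newborn and growing pigs. They were picked by name from a table of 22861 genes: cyclins A, B, D and E, cyclin-dependent kinases (CDKs) and their inhibitors, the ORC and MCM proteins that license DNA replication, centromere proteins, BUB and aurora kinases, and CDC20, CDC6, TPX2, TOP2A, MKI67 and GTSE1. This gave 69 genes, of which 64 were named by the gene name table used here and 5 (CCND1, CCND2, CDK6, CCNA2 and MKI67) only by the study's own list of genes that differ with age. Since those 5 carry a name because of that difference, their values at birth and at 4 months are a description, with no test. No row was found under CDK2, CDK4, CCND3, CDKN1A, CDKN1B, CDKN1C, CDKN2B, PCNA, PLK1, AURKA, CENPA, ORC6, MCM5, MCM6, MCM7 or MCM10, which are not analysed here. Only 11450 of the 22861 genes had a symbol in the gene name table. Genes of the cycle may thus be among the rows without a name, and the 69 are not a full list. RNA had been sequenced from 24 male pigs, 1 library per animal: 6 purebred Iberian (IB) and 6 Iberian x Duroc (IBxDU) newborns, labelled as postnatal day 1,, and at 4 months another 6 of each. All dams were Iberian sows of a single farm, mated to Iberian or to Duroc boars, and the older pigs of both types had the same growing diet. The newborns of each type came from fewer litters than animals, so some are littermates and the tests, which treat animals as independent, do not allow for it.

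A dividing cell passes from growth (G1) through DNA synthesis (S) to mitosis. D cyclins with CDK6 start the passage through G1, the INK4 inhibitors CDKN2C and CDKN2D bind that kinase and hold it back, and ORC, CDC6 and the MCM helicase mark the origins where DNA will be copied. Cyclins A and B with CDK1 then drive mitosis, in which aurora B, BUB proteins, TPX2 and CDC20 control the attachment and separation of chromosomes at the centromere. Nuclei within muscle fibres do not divide. In growing muscle the dividing cells are mainly satellite cells, the muscle stem cells, and cells of connective tissue and vessels.

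The values are RPKM, a read density corrected for gene length and library total, brought to a common scale between libraries with factors from a trimmed mean. The library totals behind them were 19.99 to 35.9 M counted reads or read pairs. Differences are log2 values of RPKM + 0.1 with their standard error, birth minus 4 months or IBxDU minus IB, fitted with limma. A gene was called where p was at most 0.01 with a change of 1.5-fold or more, following the study, and a gene was tested where its mean exceeded 0.5 RPKM in a compared group. The muscle fibre markers ACTA1 and DES were abundant in every group (DES averaged 2468 to 4382 RPKM), and the satellite cell marker PAX7 has no row. In 8 libraries nearly all counted reads fell in listed genes (99.3 to 99.5%), against 88.05 to 96.2% in the other 16. The 8 were 1 IB and 4 IBxDU newborns, and 1 IB and 2 IBxDU pigs at 4 months, so the kind of library is not evenly spread over the groups.

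More of these genes were higher at birth than at 4 months, among them GTSE1, CDC20 and AURKB of mitosis. CDK1, CCNB1, CCNB2 and TOP2A of the mitotic core were not called, though the 95% interval of CCNB1 lay wholly toward birth. Among the 52 name-table genes tested, 18 were higher at birth, 8 were higher at 4 months and 26 were not called. Of all 12180 genes tested 45.4% were called, 24.5% higher at birth and 20.9% higher at 4 months, against 50.0%, 34.6% and 15.4% here. At an adjusted p under 0.05 alone 33 genes passed, where 65.6% of all genes did. The median difference was 0.47 on the log2 scale and that of all genes 0.10. Every newborn lay apart from every older pig in 8 of the 52 genes, or 15.4%, near the 15.5% of all genes. Of the 52 genes 15 passed the filter only through the newborns and none only through the older pigs, so the counts favour birth by construction. Of those called, GTSE1, CDC20, CDK18, ORC1, MCM9, CENPH and CCNB1IP1 entered the test in this way. In whole muscle, fewer dividing cells and less RNA per cell cannot be told apart.

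These counts depend on scaling. Without it the median of all genes was 0.91 toward birth, and 42 of the 52 genes were then called higher at birth and 3 higher at 4 months, where 61.5% and 5.9% of all genes were. Directions below are relative to the bulk of genes. In the 16 libraries with the lower share alone, 12 of 50 genes were higher at birth and 8 higher at 4 months. Of all genes 23.9% and 20.8% were, so the share higher at birth was then that of the background. In the 8 libraries with the higher share 13 and 6 of 54 were called, where 15.5% and 16.5% of all genes were.

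**Figure D1:**
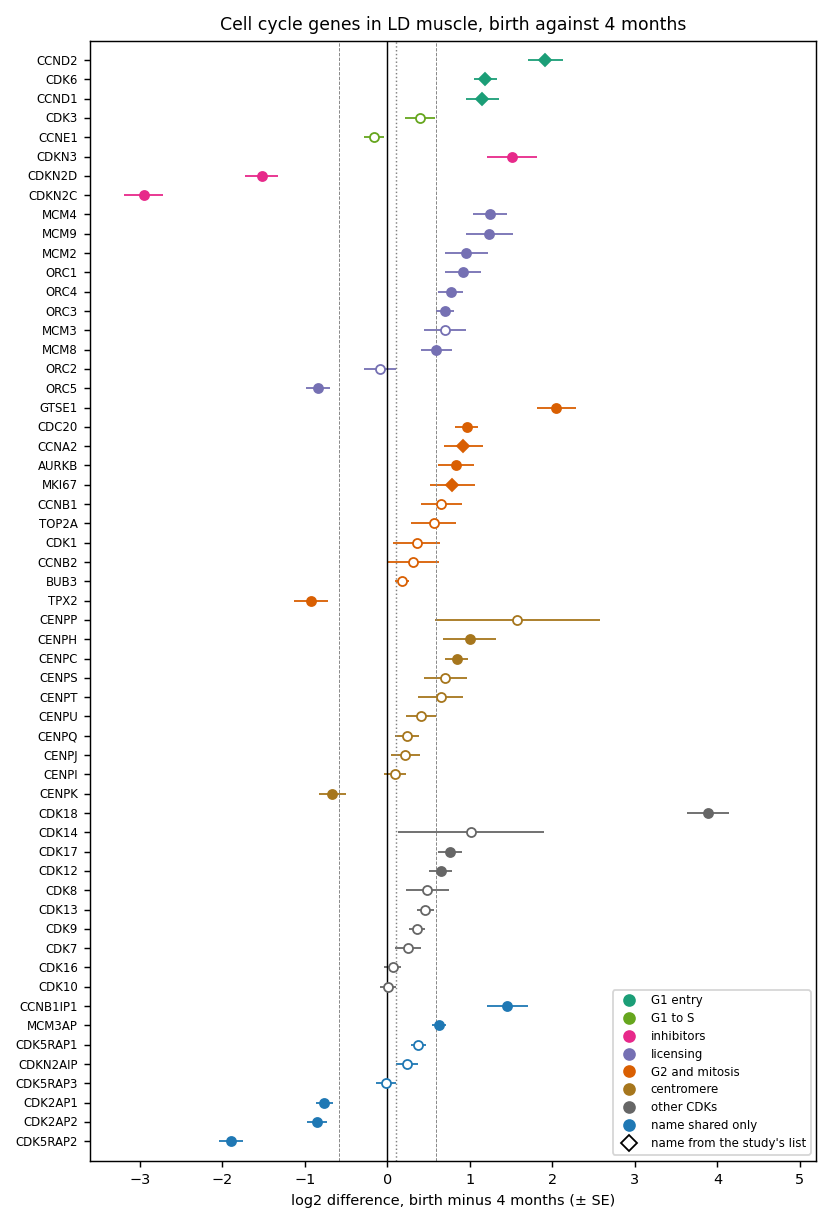
Log2 difference between newborns and 4-month-old pigs (birth minus 4 months, bars are standard errors, n = 12 each) of the 57 genes past the filter, ordered by role. Filled symbols passed p of at most 0.01 and 1.5-fold (dashed lines), and the dotted line is the median of all genes, 0.10. Diamonds are the 5 genes named only by the study's list. Their names rest on a difference with age, so their fill is a description and no test. CDK18 lies farthest toward birth at 3.89 and CDKN2C farthest toward 4 months at -2.96.

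The 3 genes of entry into G1 all had higher means at birth, and all 3 owe their names to the study's list. CCND2 (cyclin D2, ENSSSCG00000000727) ranged from 1.36 to 5.16 RPKM in IB newborns with a median of 3.01, and from 3.74 to 5.12 with a median of 4.47 in IBxDU newborns. At 4 months it ranged from 0.428 to 1.44 (median 1.05) in IB and from 0.485 to 1.03 (median 0.839) in IBxDU pigs. The lowest IB newborn lay just under the highest older IB pig, while the IBxDU groups were apart, and the difference over all animals was 1.92 ± 0.21. The reads behind the older values were few, 3 to 12 per library. For CCND1 (cyclin D1) the medians were 3.08 and 3.32 RPKM in IB and IBxDU newborns and 1.05 and 1.38 at 4 months, a difference of 1.15 ± 0.19. CDK6, the kinase that both cyclins activate, had medians of 1.14 and 1.15 at birth and 0.382 and 0.601 at 4 months, and its newborns, at 0.857 RPKM or more, all lay above the older pigs, at 0.628 or less. Cyclin E1, which takes over toward S phase, did not follow. CCNE1 medians were 1.09, 1.08, 1.30 and 1.26 RPKM in IB newborns, IBxDU newborns, IB and IBxDU pigs at 4 months, with a difference of -0.16 ± 0.12 that turned to 0.62 without scaling. CDK3, a kinase of the exit from rest, differed by 0.40 ± 0.18 and was not called.

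The inhibitors split by kind. CDKN2C (p18INK4c, ENSSSCG00000003876), which binds CDK6, rose 7.75-fold from birth to 4 months and had no overlap between ages. It lay at 1.46 to 5.11 RPKM (median 3.52) in IB and at 0.820 to 3.73 (median 1.65) in IBxDU newborns. At 4 months the levels were 14.3 to 21.0 (median 17.4) in IB and 15.7 to 28.1 (median 19.7) in IBxDU pigs, and the difference was -2.96 ± 0.23 (limma, adjusted p = 4.19e-11). Both newborn groups thus lay wholly below both older groups. CDKN2D (p19INK4d, ENSSSCG00000013643), of the same family, rose 2.88-fold, by -1.53 ± 0.20 on the log2 scale of birth minus 4 months (adjusted p = 2.71e-07). Its medians were 4.16 and 3.78 RPKM in IB and IBxDU newborns and 12.5 and 12.6 at 4 months. A single IB newborn at 11.4 RPKM lay within the range of the older pigs, 8.97 to 15.8. CDKN2A stayed at or under 3 reads per library and was not tested.

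CDKN3, a phosphatase that removes the activating phosphate from CDKs, moved the other way (ENSSSCG00000005047). IB newborns had 2.41 to 10.7 RPKM (median 5.96) and IBxDU newborns 4.04 to 23.1 (median 12.1). The older pigs had 1.39 to 2.85 (median 2.62) in IB and 1.69 to 4.83 (median 2.69) in IBxDU. The difference was 1.51 ± 0.30 (adjusted p = 9.73e-05). The spread among newborns, from lowest to highest RPKM + 0.1, was 9.23-fold. On that scale only CENPP and CDK14 among the genes tested here spread more. In RPKM without the added constant some lower genes also spread more, such as TOP2A from 0.289 to 3.48. All 3 inhibitors tested were called, where 45.4% of all genes were. Each kept its direction and call in the lower-share and in the higher-share libraries alone.

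**Figure D2:**
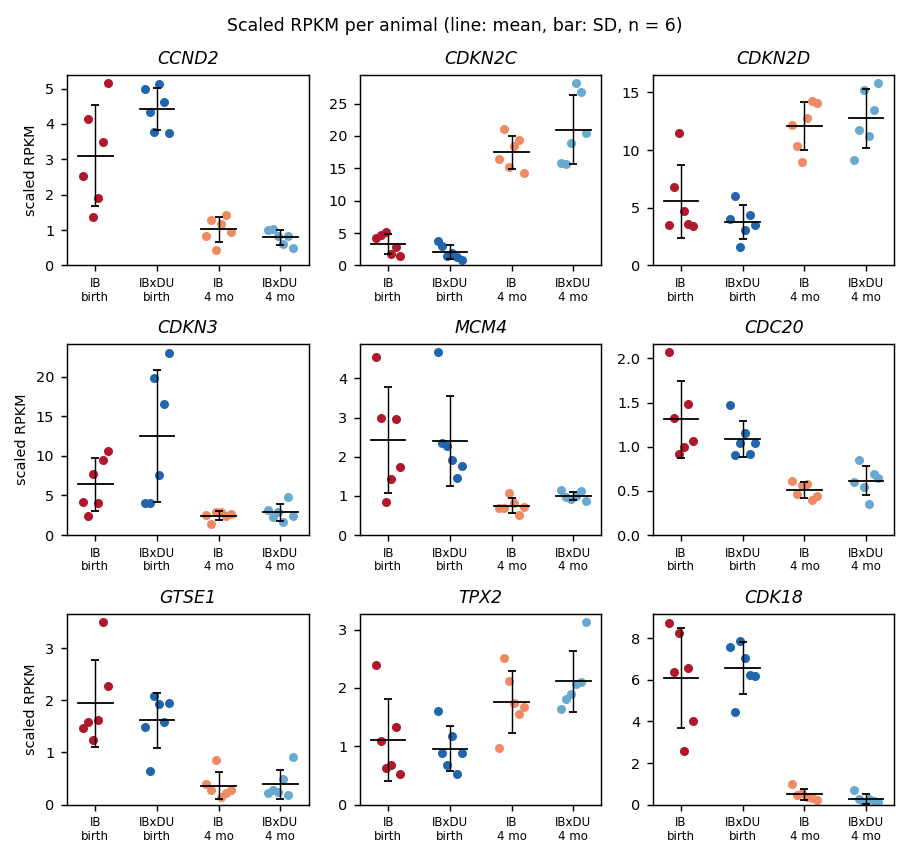
Scaled RPKM of 9 genes in each animal, by group (points are animals, n = 6 per group, lines are means and bars SD, all axes start at 0). CDKN2C and CDK18 show a gap between ages, whereas newborns of CDKN3, MCM4 and TPX2 spread widely and reach the range of the older pigs.

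Over both types together, replication licensing was the role with the largest share of called genes among those with more than 3 tested. Of its 10 genes 7 were higher at birth, 1 was higher at 4 months and 2 were not called, with a median of 0.73. Of all genes 24.5% were higher at birth and 20.9% higher at 4 months. The 7 include MCM8 and MCM9, grouped here by name, which act in DNA repair. ORC1 and MCM9, among the 7, passed the filter only through the newborns. Within IB alone 2 of 10 were higher at birth and 1 was higher at 4 months, where 23% and 20% of all genes were. Within IBxDU alone the counts were 4 and 1 of 10, where 19% and 19.7% of all genes were called. MCM4 (ENSSSCG00000006273), a subunit of the replicative helicase, ranged from 0.835 to 4.56 RPKM (median 2.35) in IB and from 1.45 to 4.67 (median 2.10) in IBxDU newborns. It ranged from 0.515 to 1.08 (median 0.705) and from 0.874 to 1.15 (median 0.980) at 4 months, a 2.37-fold difference (log2 1.24 ± 0.21, adjusted p = 1.08e-05). Only the IB newborn at 0.835 fell within the range of the older pigs. MCM2, another helicase subunit, had medians of 1.54 and 2.01 RPKM in IB and IBxDU newborns and 0.780 and 0.913 at 4 months, and was called at 0.96 ± 0.26. MCM3 had a like pattern, with medians of 1.15, 1.24, 0.623 and 0.844, but at 0.70 ± 0.26 its p was 0.0120 and it was not called. For MCM2 the highest newborns were IB 323 at 4.19 and IBxDU 402 at 4.06 RPKM and the lowest IB 345 at 0.553 and IBxDU 427 at 0.668, and the same 4 animals were highest and lowest in MCM3.

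MCM8 and MCM9, helicases that act in DNA repair by recombination, were called at 0.59 ± 0.18 and 1.23 ± 0.29. MCM9 followed the kind of library at birth: its newborn levels were 1.65 to 2.49 RPKM in the 5 higher-share and 0.510 to 1.15 in the 7 lower-share libraries. Within the lower-share libraries the age difference of MCM9 was 0.94 ± 0.21 and within the others 1.14 ± 0.29, both called. MCM8 was not called within either kind. The origin recognition complex did not move as a unit. ORC1 (0.92 ± 0.22), ORC3 (0.70 ± 0.11) and ORC4 (0.76 ± 0.15) were higher at birth, ORC2 was not called (-0.09 ± 0.19) and ORC5 was higher at 4 months (-0.84 ± 0.15, adjusted p = 2.45e-05). ORC5 medians were 2.05 and 1.70 RPKM in IB and IBxDU newborns and 3.71 and 2.85 at 4 months, with overlap between ages. Without scaling ORC5 differed by -0.03 and was not called. ORC4 newborns also separated by library kind, with medians of 12.3 RPKM in the higher-share and 6.55 in the lower-share libraries and no overlap, and within the latter the age difference was 0.42 ± 0.12, under 1.5-fold. ORC1 was low, at medians of 0.430 and 0.381 RPKM at birth and 0.199 and 0.205 at 4 months.

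Of the genes of G2 and mitosis, 9 name-table genes were tested, of which 3 were higher at birth, 1 was higher at 4 months and 5 were not called. These were 33.3% and 11.1%, against 24.5% and 20.9% of all genes. GTSE1 (ENSSSCG00000000002), a microtubule-binding protein of G2 that restrains p53, was the farthest toward birth. Its values were 1.23 to 3.49 RPKM (median 1.60) in IB and 0.639 to 2.09 (median 1.75) in IBxDU newborns, against 0.153 to 0.857 (median 0.281) and 0.187 to 0.912 (median 0.257) at 4 months. Only IBxDU newborn 412, at 0.639, lay within the older range, and the difference was 2.05 ± 0.24 (4.13-fold, adjusted p = 3.78e-08). GTSE1 passed the filter only through the newborns, as did CDC20. CDC20 (ENSSSCG00000003949), which activates the complex that ends mitosis, was 0.911 to 2.08 RPKM in newborns and 0.353 to 0.854 at 4 months. No newborn overlapped an older pig, with a difference of 0.96 ± 0.14 (1.95-fold, adjusted p = 1.67e-06). Aurora kinase B (AURKB), of the chromosomal passenger complex, had medians of 1.41 and 1.56 RPKM at birth and 0.714 and 0.877 at 4 months and was called at 0.83 ± 0.22. Within the lower-share and the higher-share libraries alone AURKB was not called (0.98 ± 0.40 in the latter).

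The core of the mitotic machinery was low in both ages. CDK1, the mitotic kinase, had medians of 0.631 and 0.602 RPKM in IB and IBxDU newborns and 0.454 and 0.565 at 4 months, a difference of 0.36 ± 0.29. CCNB1 and CCNB2, its cyclins, differed by 0.66 ± 0.25 and 0.31 ± 0.31, with medians of 0.541, 0.556, 0.302 and 0.356 RPKM for CCNB1 in the same order of groups and 0.347, 0.432, 0.135 and 0.341 for CCNB2. TOP2A, the topoisomerase that untangles chromosomes, ranged from 0.289 to 3.48 RPKM at birth and from 0.375 to 1.07 at 4 months, and its difference of 0.56 ± 0.27 was not called (adjusted p = 0.0727 in limma). BUB3, a checkpoint protein with a further role in splicing, was by far the most abundant of the mitosis genes at medians of 13.3, 16.0, 13.8 and 11.8 RPKM and differed by 0.18 ± 0.09. The 95% intervals of CDK1, -0.23 to 0.94, and of CCNB1, 0.13 to 1.18, reached past 1.5-fold toward birth. That of CCNB1 lay wholly on the side of birth. For the genes named by the study's list, CCNA2 (cyclin A2) had medians of 0.902 and 1.02 RPKM at birth and 0.400 and 0.644 at 4 months (0.92 ± 0.23), and MKI67, the antigen used to stain cycling cells, 0.860 and 0.388 at birth and 0.255 and 0.408 at 4 months (0.79 ± 0.28).

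TPX2 (ENSSSCG00000007235), which activates aurora A on the spindle, was the exception among them, being higher at 4 months. Newborns had 0.530 to 2.39 RPKM (median 0.885) in IB and 0.522 to 1.60 (median 0.890) in IBxDU, and older pigs 0.963 to 2.52 (median 1.71) and 1.65 to 3.14 (median 1.99). The difference was -0.93 ± 0.20 (1.90-fold, adjusted p = 0.000296), and -0.14 without scaling, where it was not called. IB newborn 323 at 2.39 RPKM lay among the older pigs.

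The width of the newborn ranges came from the same animals in many of the genes. Among newborns the highest library exceeded the lowest, in RPKM + 0.1, by a median of 4.86-fold over the 11 tested mitosis genes. The median ratio was 3.64-fold over the 10 licensing genes and 2.47-fold over all genes tested. At 4 months these ratios were 3.05, 2.33 and 2.24. IB 323 was the highest newborn in 7 of the 11 mitosis genes, with a median deviation of 1.14 on the log2 scale from the newborn mean, and IBxDU 402 followed at 0.86. IB 345 was the lowest in 5 of the 11 at -0.84. The medians over all genes in these 3 libraries were within 0.01 of the newborn mean, to which the scaling brings every library close. For TOP2A this meant 3.48 RPKM in IB 323, 2.23 in IBxDU 402 and 0.289 in IB 345, a range wider than the whole range of the older pigs. CDKN3 did not follow these animals: IB 323 had 4.17 RPKM of CDKN3, while IBxDU 429 had the most, 23.1, and low mitosis genes (-0.53). At 4 months IBxDU 708 was the highest in 5 of the 11 mitosis genes at 0.48.

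Markers of other cells also differed between animals and ages. The summed level of 5 erythroid genes was 6.81 to 76.4 RPKM in IB newborns, 2.82 to 9.64 in IBxDU newborns and 0.602 to 4.85 at 4 months, where the erythroid factor KLF1 was at 0 in every library. Of the 4 tested, 2 were called higher at birth. The highest sum was that of IB 503, which was the highest newborn in 2 of the 11 mitosis genes. Without IB 503 the age counts were again 18 and 8. Of 4 tested fibroblast genes 3 were higher at birth, with sums of 582 to 1982 RPKM in newborns and 444 to 792 at 4 months. Of 3 endothelial genes 1 was higher at birth. Of 4 satellite cell and myoblast genes none was higher at birth and 2 were higher at 4 months, one of them DES, which muscle fibres also express. CDH15 averaged 10.95 and 9.02 RPKM in IB and IBxDU newborns and 19.99 and 16.45 in the older pigs. The means of the other genes leaned toward birth, with MYF5 at 2.39 and 2.13 against 1.89 and 1.69 RPKM. Those of NCAM1 were 3.96 and 6.45 against 3.13 and 4.90 RPKM. At 4 months both fibre markers were higher, with ACTA1 means of 33660 and 29490 RPKM in IB and IBxDU newborns and 107500 and 110100 in the older pigs, as were 2 of 2 adipocyte and 2 of 4 leucocyte genes. Beside these small counts, 24.5% of all genes were higher at birth and 20.9% higher at 4 months. The part of these cells in the differences with age was not tested.

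**Figure D3:**
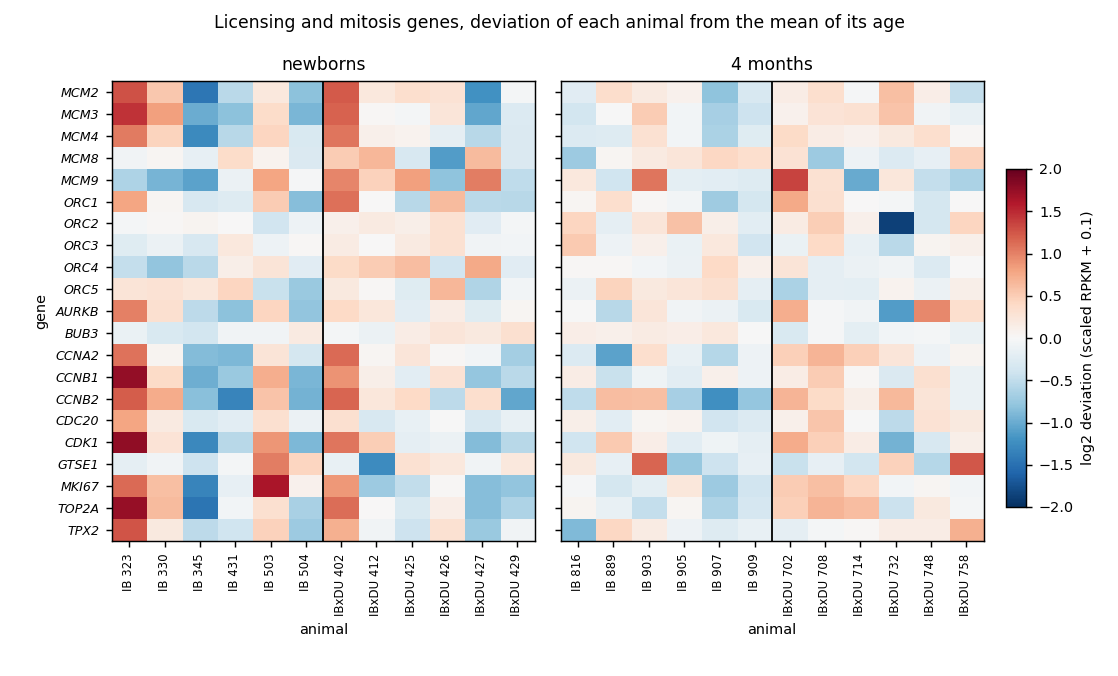
Deviation of each animal from the mean of its age (log2 of scaled RPKM + 0.1, red above and blue below) for 10 licensing and 11 mitosis genes, newborns on the left and 4-month-old pigs on the right. IB 323 and IBxDU 402 are red and IB 345 blue across most mitosis genes and the helicase genes MCM2, MCM3 and MCM4, and colours are paler at 4 months.

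Of 10 centromere proteins tested, 2 were higher at birth, 1 was higher at 4 months and 7 were not called, with a median of 0.53. Both shares were below those of all genes, 24.5% higher at birth and 20.9% higher at 4 months. CENPC (ENSSSCG00000008921), which anchors the kinetochore on centromeric chromatin, was 1.73 to 2.45 RPKM in newborns and 0.6252 to 1.67 at 4 months. Its ages did not overlap, at a difference of 0.84 ± 0.14 (1.79-fold, adjusted p = 1.47e-05). CENPH, of the inner kinetochore, was called at 1.00 ± 0.33 on few reads, 0 to 24 per library in the older pigs, and was not called in the lower-share libraries alone. CENPK, from the same complex, was called at -0.67 ± 0.16 and turned to 0.13 without scaling. At 4 months CENPK was 1.31 to 1.65 RPKM in the 3 higher-share and 1.66 to 2.77 in the 9 lower-share libraries. Within the higher-share libraries its age difference was -0.06 ± 0.26 and within the lower-share libraries -0.94 ± 0.17. CENPI, CENPJ and CENPQ differed by 0.09 to 0.24 and CENPS, CENPT and CENPU by 0.41 to 0.70, none of them called.

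CENPP and CDK14 separated completely by the kind of library. In the 8 higher-share libraries CENPP (ENSSSCG00000008070), a kinetochore protein, lay between 12.8 and 81.5 RPKM, and in the 16 others between 0.593 and 1.44. CDK14 (ENSSSCG00000015307), a kinase that acts with cyclin Y, lay between 15.2 and 31.8 RPKM in the former and between 0.336 and 1.08 in the latter. No animal crossed this gap, whatever its age or type. Within the 8 libraries CENPP was also higher in the newborns, at 59.5 to 81.5 RPKM, than at 4 months, at 12.8 to 31.7. Of all 12180 genes tested, 385 lay wholly higher and 2 wholly lower in the 8 libraries, or 3.18%, and no other of the 57 genes tested here was among them. In the RefSeq annotation of a later pig assembly CENPP overlaps the genes ASPN, ECM2, IPPK, OGN and OMD, and CDK14 overlaps MTERF1. Overlap is not particular to CENPP and CDK14. There CCNA2, CCNE2, CDK3, CDK5R1, CDK7, CDK12, CENPK, CENPT, CENPU, MCM9 and MCM3AP also overlap other protein-coding genes. The strand setting of the counting is not given in the sources used here, so reads of overlapping genes cannot be told apart. Within the higher-share libraries CENPP differed by 1.77 ± 0.28 between ages and within the others by 0.14 ± 0.18.

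**Figure D4:**
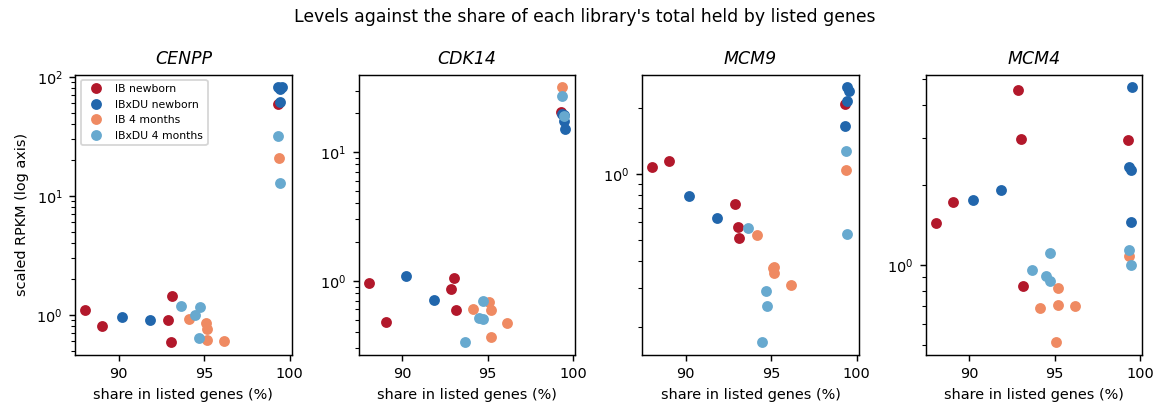
Scaled RPKM (log axis) of 4 genes in each library against the share of the library total held by listed genes (%), coloured by group. CENPP and CDK14 jump at the 8 libraries over 99%, MCM9 is higher there among newborns, and MCM4 shows no such step.

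Of the other CDKs, which act mostly outside the cycle in transcription and in nerve cells, 3 of 10 were higher at birth and none was higher at 4 months. The share higher at birth was 30.0%, against 24.5% of all genes, of which 20.9% were higher at 4 months. CDK18 (ENSSSCG00000015290), a kinase of the PCTAIRE group, had the largest difference of all genes described here. It ranged from 2.56 to 8.76 RPKM (median 6.48) in IB and from 4.45 to 7.89 (median 6.64) in IBxDU newborns. In the older pigs the ranges were 0.239 to 0.983 (median 0.400) in IB and 0.0675 to 0.705 (median 0.203) in IBxDU. Every newborn thus exceeded every older pig, and the difference was 3.89 ± 0.25 (14.8-fold, adjusted p = 1.35e-12), with 1 to 20 reads per library at 4 months. CDK18 passed the filter only through the newborns. Its relatives differed among themselves: CDK17 was called at 0.76 ± 0.15 and CDK16, the most abundant of them at medians of 32.7 to 40.1 RPKM, was not (0.06 ± 0.11). CDK12, which phosphorylates RNA polymerase II during elongation, was called at 0.64 ± 0.14, and CDK9 and CDK13, with the same substrate, differed by 0.36 ± 0.10 and 0.46 ± 0.10, under 1.5-fold. CDK7, CDK8 and CDK10 were not called. CDK12 and CDK17 were not called in the lower-share libraries alone.

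Another 9 genes share only the beginning of their name with a cyclin, CDK or MCM. Of 8 tested, 2 were higher at birth and 3 were higher at 4 months, where 24.5% and 20.9% of all genes were. CDK5RAP2, a centrosome protein that nucleates microtubules, was 0.423 to 1.10 RPKM in newborns and 1.94 to 4.84 at 4 months (-1.90 ± 0.15, adjusted p = 2.34e-11). CDK2AP1 and CDK2AP2, which bind CDK2, were abundant and did not overlap between ages. CDK2AP1 had medians of 35.6 and 38.9 RPKM at birth and 64.1 and 60.9 at 4 months (-0.77 ± 0.11), a direction that turned to 0.08 without scaling. CDK2AP2 had 9.55 and 9.87 against 17.0 and 16.7 (-0.85 ± 0.12), and -0.01 without scaling. MCM3AP, of nuclear export of mRNA, was higher at birth by 0.62 ± 0.09. CCNB1IP1, a ubiquitin ligase known from meiosis, was higher at birth by 1.45 ± 0.25 on 0 to 32 reads. CDK5RAP1, CDK5RAP3 and CDKN2AIP were not called.

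The same comparison was made within each genetic type, with 6 newborns against 6 older pigs. In IB 53 name-table genes were tested, of which 11 were higher at birth and 7 higher at 4 months, where 43% of all genes were called (23% and 20%). In IBxDU 14 and 7 of 53 were called, with 38.7% of all genes (19% and 19.7%). CDKN2C, CDKN2D, CDK5RAP2, CDK2AP1, CDK2AP2 and ORC5 were higher at 4 months and CDK18, GTSE1, CDKN3, MCM4, CDC20, CENPC, CDK17, MCM3AP and CCNB1IP1 higher at birth in both types, where without scaling CDK2AP1 (0.19), CDK2AP2 (0.09) and ORC5 (0.15) turned direction within IBxDU. The CDKN2C difference was -2.47 ± 0.28 in IB and -3.45 ± 0.31 in IBxDU, and that of CDK18 was 3.39 ± 0.32 and 4.38 ± 0.32. CCND2 differed by 1.47 ± 0.32 and 2.36 ± 0.19. MKI67 differed by 1.36 ± 0.41 in IB and by 0.20 ± 0.31 in IBxDU. Whether the age difference itself differed between types was tested as an interaction. None of the 59 genes tested passed an adjusted p under 0.05 in limma (0.0241% of all 12441 genes did), while 7 had an unadjusted p under 0.05, or 11.9%, against 13.4% of all genes. The smallest p was that of BUB3 (0.50 ± 0.15, adjusted p = 0.166), and CDKN2C (-0.96 ± 0.43), CCND2 (0.90 ± 0.39) and MKI67 (-1.15 ± 0.52) had adjusted p values of 0.339, 0.316 and 0.341.

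Between genetic types none of the 69 genes was called. At birth 59 of the 69 genes were tested and none passed the limits in limma, where 4.2% of all genes did. None passed with limma's voom on the reads either, and 7 of the 59 had an unadjusted p under 0.05, against 18.6% of all genes. At 4 months 43 genes were tested and none was called, by limma or by voom, where 1.39% of all genes were, and 4 had an unadjusted p under 0.05, against 8.67% of all genes. The 95% interval of the difference lay within 1.5-fold in 20 of the 59 genes at birth and in 20 of the 43 at 4 months. In the others it reached past 1.5-fold in at least 1 direction.

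CDK8 (ENSSSCG00000009298), a kinase of the Mediator complex, came closest at birth. It was 0.530 to 1.85 RPKM (median 0.720) in IB and 0.990 to 2.94 (median 1.69) in IBxDU newborns, with overlap, at a log2 difference of 1.01 ± 0.34 (two-sided exact permutation p = 0.0260, limma p = 0.0103, adjusted p = 0.175). CDK7, which activates other CDKs, had medians of 0.935 and 1.71 RPKM in IB and IBxDU newborns (0.62 ± 0.24, exact permutation p = 0.0238, adjusted p = 0.215). Of the newborns 4 of 6 IBxDU but 1 of 6 IB libraries were of the higher-share kind. Without IB 503 CDK8 was called at 1.23 ± 0.30, together with CENPP and CDK14, and in the lower-share libraries alone, 5 IB and 2 IBxDU newborns, CDK8 and CDK7 were 0.80 ± 0.29 and 0.97 ± 0.30, both not called. CCND2 was 0.64 ± 0.27 higher in IBxDU newborns (exact permutation p = 0.0563) and was called without IB 504 at 0.81 ± 0.25. ORC4 was 0.57 ± 0.24 higher (exact permutation p = 0.0541), and 0.10 ± 0.25 in the lower-share libraries alone. CENPP and CDK14, at 3.19 ± 1.43 and 2.25 ± 1.04, had 0.03 ± 0.33 and 0.20 ± 0.35 there. CDKN2C was lower in IBxDU newborns by 0.72 with an interval from -1.55 to 0.11.

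Intervals of mitosis genes were wide at birth and covered 0. TOP2A differed by -0.16 (interval -1.21 to 0.89), CDK1 by -0.04 (-1.15 to 1.08) and MKI67 by -0.67 (-1.70 to 0.36). At 4 months BUB3 was 12.5 to 14.7 RPKM in IB and 10.21 to 12.3 in IBxDU pigs. Its difference was small, -0.22 ± 0.09, with an exact permutation p of 0.00433 and an adjusted p of 0.485 in limma. CCNA2 (0.59 ± 0.26, exact permutation p = 0.0195), MCM4 (0.39 ± 0.18, p = 0.0173 in the exact permutation test) and TOP2A (0.50 ± 0.24, exact permutation p = 0.0433) had higher means in IBxDU pigs at that age, with adjusted p values in limma of 0.552, 0.561 and 0.589. With 6 animals against 6 the exact permutation test cannot give a p under 0.00216, and it was run on 59 genes at birth and 43 at 4 months.

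**Figure D5:**
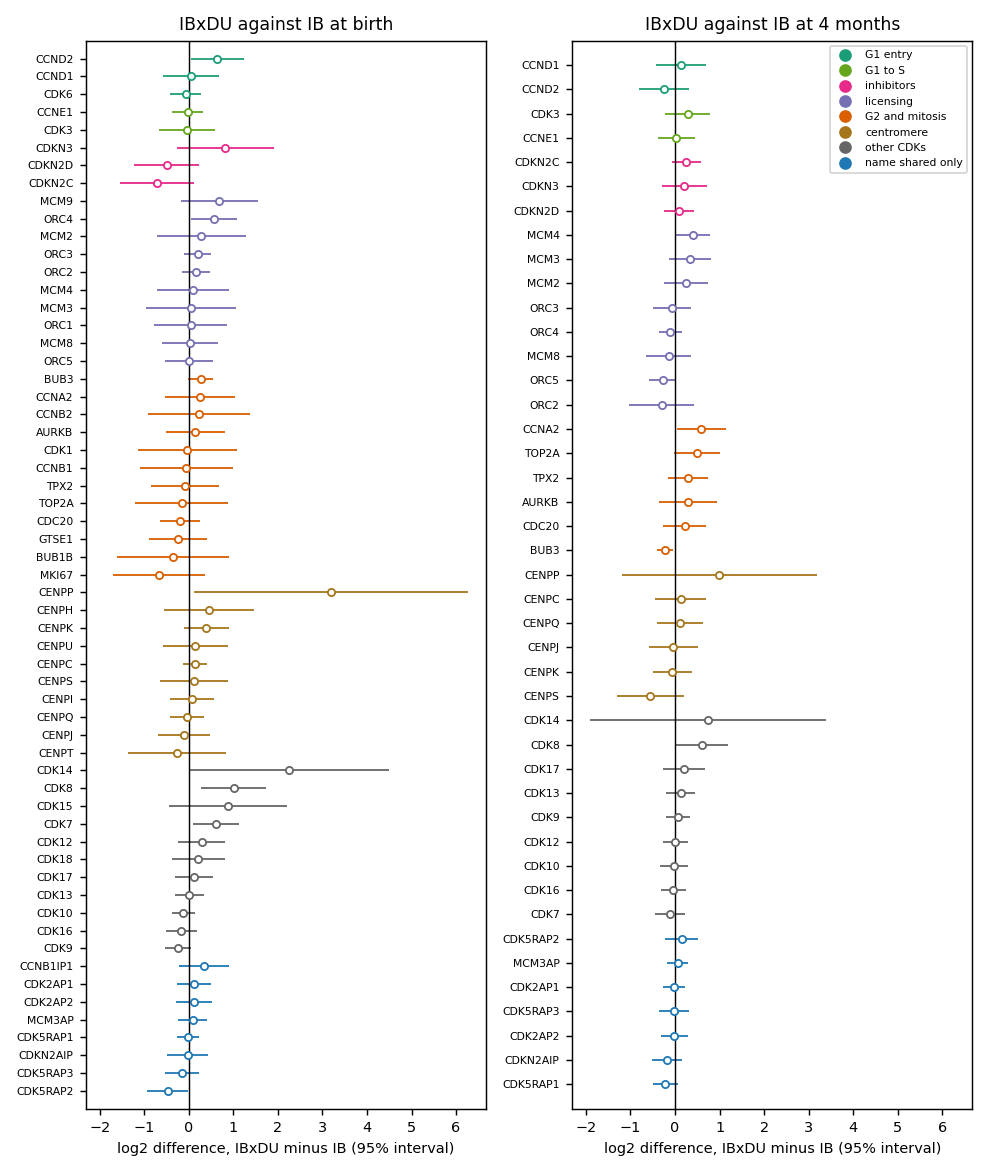
Log2 difference between genetic types (IBxDU minus IB, bars are 95% intervals, n = 6 each) of the 59 genes tested at birth and the 43 tested at 4 months, coloured by role. No gene passed the limits, CENPP and CDK14 have the widest intervals, and the intervals of TOP2A, TPX2 and CCNA2 are wider at birth than at 4 months.

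A further 108 genes of the cycle were listed from textbook knowledge, from E2F factors to kinesins, of which 80 have a row and 61 were tested. Between birth and 4 months 13 were higher at birth, 9 were higher at 4 months and 39 were not called, or 36.1% called where 45.4% of all genes were, with a median of 0.38. The shares were 21.3% higher at birth and 14.8% higher at 4 months, against 24.5% and 20.9% of all genes. Among the 13 higher at birth were PKMYT1, the kinase that inhibits CDK1 (2.00 ± 0.36), CDC7, which fires licensed origins (1.43 ± 0.14), and its partner DBF4 (0.74 ± 0.21). So were the licensing factor CDT1 (0.82 ± 0.27), the transcription factors E2F1 (0.77 ± 0.26), E2F5 (1.37 ± 0.32) and MYBL2 (1.33 ± 0.28), and the chromatin proteins HELLS (1.30 ± 0.16) and UHRF1 (1.04 ± 0.32). The rest of the 13 were GINS3 (0.77 ± 0.22), CDC25A (0.68 ± 0.14), CCNF (0.79 ± 0.14) and NCAPH (0.93 ± 0.29). Among the 9 higher at 4 months were RPA1 (-0.78 ± 0.10) and RPA2 (-1.29 ± 0.14), which coat single-stranded DNA, the clamp loader subunits RFC2 (-0.91 ± 0.13) and RFC5 (-1.15 ± 0.10), and the primase subunit PRIM2 (-0.99 ± 0.20). Among genes of DNA synthesis on the list that were not called were POLA1 at 0.50 ± 0.14, RFC1 at 0.43 ± 0.13, LIG1 at 0.45 ± 0.15, RFC3 at -0.16 ± 0.10 and PRIM1 at 0.15 ± 0.16. The rest of the 9 were the pocket protein RBL1 (-0.82 ± 0.14), SKP2 (-0.82 ± 0.19), a ubiquitin ligase subunit that removes CDK inhibitors, and the mitosis genes KIF2C (-0.85 ± 0.24) and RACGAP1 (-0.82 ± 0.20). Between genetic types 3 of 61 of these genes were called at birth, or 4.92%, near the 4.2% of all genes: E2F5 (1.24 ± 0.34) and TFDP1 (0.68 ± 0.15) were higher and ZWILCH (-1.54 ± 0.45) was lower in IBxDU newborns. At 4 months none of 42 was called.

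A group of 12 genes stayed under the filter in both ages: BUB1, BUB1B, CCNA1, CCNB3, CCNE2, CDC6, CDK15, CDK5R1, CDKN2A, CENPE, CENPF and CENPL. CDC6, the loader of the MCM helicase, had medians of 0.227 and 0.213 RPKM in IB and IBxDU newborns and 0.112 and 0.145 at 4 months. BUB1B reached 1.13 RPKM in an IB newborn at a group median of 0.322. CCNA1, the cyclin of germ cells, had at most 2 reads in any library.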

How the data were processed

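RNA was extracted from LD muscle of 24 male pigs and sequenced in paired-end mode. Mapping to Sscrofa10.2 was done by the authors in CLC Genomics Workbench, who deposited 1 RPKM value per gene and library. Every per-sample column was used. The RPKM of all 17846 genes above 0 came out as whole reads (100% within 0.001) once each library total was recovered. Whether reads or pairs were counted is not stated.

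Scaling factors were the mean log ratio to an average library after 30% of genes had been trimmed at each end, found separately for each comparison. Levels use the factors over all libraries. Genes over 0.5 RPKM as deposited in a compared group were tested on log2(RPKM + 0.1), which understates folds of low genes, with limma 3.58.1 (lmFit, eBayes with trend) in R 4.3.3, with Benjamini-Hochberg adjustment over all genes. A pooled fit of all 4 groups gave the interaction. The fit was checked on simulated data. Single genes between genetic types had an exact permutation test. On the recovered reads voom, with the same factors, gave 25 called genes for age. Of all genes 24.2% were then higher at birth and 21.3% higher at 4 months.

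Values by group are given for listed regulators past the filter, for up to 8 called genes per direction with the largest fold, and for others chosen after their values were seen. The genes, their roles and the lists were chosen with earlier results of these data known. Alternatives were other scalings, pseudocounts, filters and models, library kind, and each library left out.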

Additional observations from a re-analysis of the deposited data

Results flagged for a closer look

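The Dixon range ratio on the log2 scale was taken for 34 genes in each of the 4 groups of 6 animals, or 136 times. In 7 of the 136, 1 animal stood apart from the others of its group, where chance gives about 1 in 20. Part of the 34 genes were picked because they were called in these data. At 4 months IBxDU 732 had 0.245 RPKM of CDK6, where the others had 0.485 to 0.628, and 4.84 RPKM of CDK5RAP2, where the others had 2.21 to 2.70. IB 903 had 0.844 RPKM of CCNE1 at 4 months (others 1.21 to 1.42), and IB 889 had 1.39 RPKM of CDKN3 (others 2.38 to 2.85). IBxDU 758 had 3.14 RPKM of TPX2 (others 1.65 to 2.09). Among newborns IB 345 had 0.526 RPKM of CENPK (others 1.09 to 1.55) and IBxDU 412 had 0.639 RPKM of GTSE1 (others at least 1.497). These values rest on 16 to 188 reads.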

How the results depend on the processing

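The count of 26 genes called between birth and 4 months was 18 to 33 under the alternatives other than no scaling, which gave 45 (42 higher at birth, 3 lower). Within IB no scaling gave 37, where 55.7% of all genes were higher at birth and 5.54% lower. Within IBxDU it gave 40, where 54.9% and 5.19% of all genes were. The lower-share libraries alone gave 13 within IBxDU (9 higher at birth, 4 lower), where 17.9% and 20.2% of all genes were. With each library left out the counts were 24 to 29 over both types, 16 to 24 in IB and 18 to 21 in IBxDU. Of all genes 23.7 to 25.5% were then higher at birth and 20.5 to 21.5% lower over both types. The ranges were 21.2 to 23% and 19.2 to 20.2% in IB and 17 to 19.4% and 18.1 to 20.3% in IBxDU. The higher-share libraries alone, an alternative chosen after seeing the data, gave 19. Without scaling, directions reversed for CCNE1 (0.62, and 0.63 within IBxDU), CDK2AP1 (0.081 and 0.185), CENPK (0.13) and, within IBxDU, CDK2AP2 (0.093) and ORC5 (0.15); the median of all genes was then 0.91 over both types. Between types at birth the count of 0 became 1 with a pseudocount of 0.01 (CDK8), 2 with a fit of all 4 groups (CDK7 and CDK8) and 1 with library kind as a term (CDK7). It was 0 to 3 with each newborn left out: 3 without IB 503 (CENPP, CDK8 and CDK14), 2 without IBxDU 412 (CDK7 and CDK8), 2 without IBxDU 426 (CDK8 and ORC4), 1 without IB 431 (CDK7) and 1 without IB 504 (CCND2). At 4 months the count of 0 became 1 without a filter (CDK15) and stayed 0 with each library left out. No paired analysis was possible because the groups hold different animals that share no replicate numbers. The cause of these changes was not tested. Genes under about 0.5 RPKM rest on few reads, which limits what can be seen of CDC6, BUB1 and CENPF.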
